A study of Schizosaccharomyces pombe with 4 samples.

Results

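Reads on the 25S rRNA of the large ribosomal subunit were examined outside a site at which untagged control libraries pile up. The data come from CRAC, in which RNA is cross-linked to protein by UV light in living cells, the tagged protein is purified, and the attached RNA is converted to cDNA and sequenced. The 2 Seb1-HTP libraries came from a Schizosaccharomyces pombe strain with the affinity-tagged allele Seb1-HTP::KAN, and the 2 control libraries came from its untagged parent. Both strains were of mating type h+ and shared the mutations ade6-M216, leu1-32, ura4-delta_18 and his3delta_1. All cells grew exponentially in YES medium at 30 °C and were irradiated for 3 min. The series design names the 2 libraries of a group as biological replicates, and the control shows what is recovered without a tag.

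The members were the records on the minus strand of chromosome XII whose name holds RDN25, the 25S gene, and no RDN58 (5.8S) name, and whose midpoint lay outside 452500 to 453249 and outside the matching 461637 to 462386. There were 68899 such records of 261749 in the series. The records lie on Saccharomyces cerevisiae chromosomes and carry its gene names, although the libraries are from S. pombe. Each value thus describes those S. pombe reads whose sequence matched S. cerevisiae 25S well enough to be placed, at positions as the files give them. The release of that genome was not stated in the files or labels, and no bases are shown. The files hold both rDNA copies of that genome. They were superimposed by a shift of 9137 nt, and all positions below are those of the first copy.

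The 25S rRNA is the long RNA of the large ribosomal subunit. It forms the peptidyl transferase centre, and it is cut together with 18S and 5.8S from the 35S transcript of RNA polymerase I. Ribosomal RNA is the bulk of cellular RNA, so some of it is recovered in most purifications of RNA-bound protein, which is why the untagged strain is needed. Seb1, the fission yeast relative of Nrd1, binds RNA and is known for its part in cleavage and polyadenylation of RNA polymerase II transcripts.

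The members held 534 and 2397 reads in untagged controls 1 and 2 and 95551 and 74771 reads in Seb1-HTP libraries 1 and 2. Control 1 is thus by far the shallowest library: 1 of its reads is worth 0.187% of its members, and a count of 0 there allows a share of up to 0.562% (3 reads). The same limit is 0.125% in control 2. Whether repeated reads were collapsed is not stated, so intervals and limits cover counting error only. Since the members were chosen by leaving out a site that is high in the controls, the difference in reads between Seb1-HTP and control was used by the choice. The values of that contrast are therefore given as a description, with no test.

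Of the reads naming any feature, the members were 11.7% (95% Wilson interval 10.8 to 12.6) and 5.29% (5.08 to 5.50) in the untagged libraries against 35.6% (35.5 to 35.8) and 32.3% (32.1 to 32.5) in the tagged ones. The groups did not overlap, with means of 8.47% ± 4.51 (SD, n = 2) and 34.0% ± 2.38 (SD, n = 2). The left-out site is part of this denominator and held 3153 and 37977 reads in the controls, 12649 and 15296 with the tag. Among minus-strand reads of the 35S rDNA outside that site, the members made up 56.0% and 46.8% in controls 1 and 2 but 45.3% and 46.0% in the tagged libraries, so the order of the groups turned, with the Seb1-HTP values just below the lower control. All further shares are over the member reads of each library, so that the left-out site does not enter.

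The windows at the borders of the left-out site show what the choice of its limits let in. The window 452450 to 452499, just outside, held 0 and 0 control reads and 273 and 187 Seb1-HTP reads, and 452500 to 452549, just inside, held 8 and 98, and 3248 and 698. On the other border, 453200 to 453249 inside held 0 and 7, and 35 and 147, while 453250 to 453299 outside held 13 and 87, and 1913 and 1002. Seb1-HTP reads thus lay on both sides of the first border. Reads placed on the open reading frame RRT15, whose most frequent interval matches this border by a shift of 37968 nt, are not in these counts. Farther in, 452550 to 452599 held 845 and 11309 control reads and 2339 and 3092 Seb1-HTP reads. The second window outside each border, at 452400 to 452449 and at 453300 to 453349, held 0 and 23, and 144 and 330, and then 11 and 104, and 4193 and 2622.

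Placed by their midpoints in windows of 50 nt, the members covered 54 windows, and most reads lay in few of them. In the Seb1-HTP libraries 3 and 2 windows held at least 50% of the reads, and 15 and 14 windows held 90%. In the controls these were 3 and 4 windows, and 10 and 15 windows. The window with most reads was 453650 to 453699 in both Seb1-HTP libraries, 454250 to 454299 in control 1 and 451800 to 451849 in control 2. The replicates of Seb1-HTP were much alike: summing the smaller of both shares over the windows, 83.1% of their profiles overlapped, with a Pearson correlation of 0.963 and a Spearman correlation of 0.947 across 54 windows. The controls overlapped by 50.7% (Pearson 0.648, Spearman 0.427), and pairs of 1 control and 1 Seb1-HTP library by 38.3% to 59.5% (Pearson 0.393 to 0.660). Windows of 1 RNA are not independent points, and control 1 has few reads, so its profile is coarse.

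**Figure D1:**
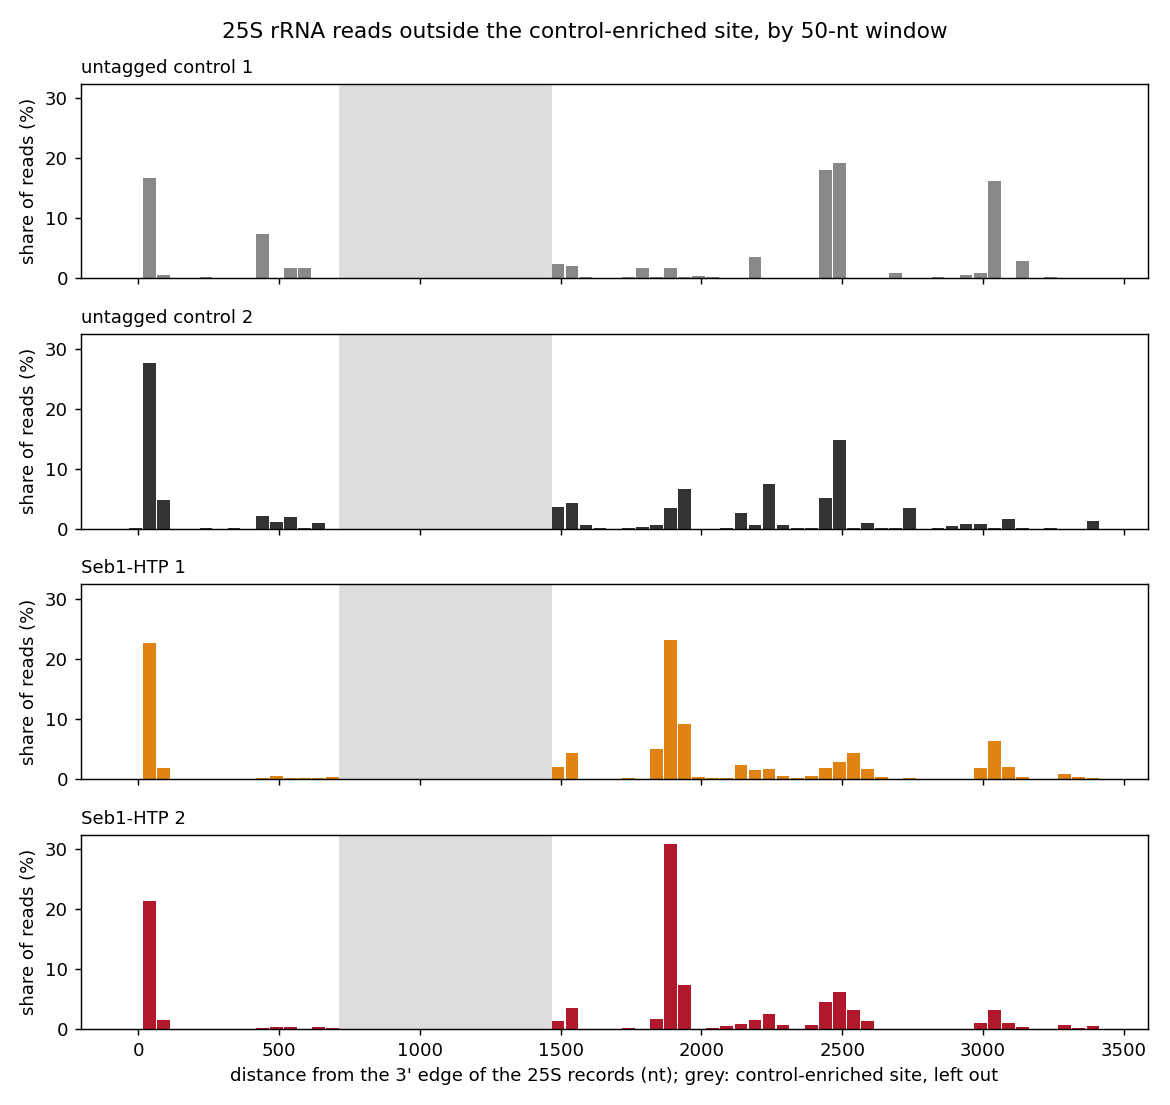
Share of each library's member reads (%) in 50-nt windows along 25S, against the distance in nt from the 3' edge of the 25S records, 1 panel per library. The grey band is the left-out site. Both Seb1-HTP libraries have their highest bar to the right of the middle, at 23.1% and 30.9%, where the controls hold 1.69% and 3.38%, and all 4 libraries have a high bar next to the 3' edge.

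The window 453650 to 453699 held the largest mean share with Seb1-HTP. It had 22069 reads (23.1%, 22.8 to 23.4) and 23100 reads (30.9%, 30.6 to 31.2) in the Seb1-HTP libraries, against 9 reads (1.69%, 0.889 to 3.17) in control 1 and 81 reads (3.38%, 2.73 to 4.18) in control 2. Every Seb1-HTP value lay far above both controls, and the mean share was 10.7-fold that of the controls (27.0% ± 5.51 against 2.53% ± 1.20, SD, n = 2 each). The edgeR fit over all 35S windows, with member reads as library size, gave a log2 ratio of 3.40 (SE 1.44). In reads, the windows on each side were also higher in both Seb1-HTP libraries. At 453600 to 453649 the shares were 4.92% and 1.70% in the tagged libraries against 0.187% and 0.542% in the untagged ones (log2 ratio 3.08, SE 1.67). In distinct fragments, each start and end counted once, the groups overlapped there, with 2.59% and 1.58% against 0.813% and 2.28% and a log2 ratio of 0.20. At 453700 to 453749 they were 9.12% and 7.40%, and 0.187% and 6.63% (log2 ratio 1.25, SE 1.43), so control 2 came close to Seb1-HTP there. This ratio was 0.32 without control 1, 5.46 without control 2 and 2.53 with the replicate number as a block, so its size rests on single control libraries.

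Together these 3 windows, 453600 to 453749, held 37.1% and 39.99% of Seb1-HTP member reads and 2.06% and 10.6% of control reads. Within them the Seb1-HTP reads had sharp borders. A read 3' end at position 453646 was found in 14831 and 18170 Seb1-HTP reads (15.5% and 24.3% of the members), but in 1 and 6 control reads (0.187% and 0.250%). This position was chosen as the 3' end with most Seb1-HTP reads, so a high ratio to the controls is favoured by the choice. Pooled over libraries, the Seb1-HTP share was 81.1 times that of the controls (39.4 to 202, from an exact binomial interval), with 7 control reads. These limits describe read counts only. They leave out both the choice of the position and the spread between libraries, and are no test. The interval 453646 to 453721, of 76 nt, was the second most frequent in both Seb1-HTP libraries, with 4560 and 3731 reads, and had 0 reads in both controls, at least 47.6-fold higher against 3 reads over the control group. The next interval of Seb1-HTP 2, 453646 to 453725, also ends there, with 2327 and 2662 Seb1-HTP reads and 0 in the controls. Control 2 had other fragments in this stretch: 108 of its 253 reads there were the interval 453673 to 453748, which held 222 and 58 Seb1-HTP reads and 0 in control 1.

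By share of member reads, the edge next to the 3' end of 25S was about as frequent in both kinds of library. The window 451800 to 451849 held 16.7% (13.7 to 20.1) and 27.7% (25.9 to 29.5) of the untagged libraries' reads, against 22.6% (22.4 to 22.9) and 21.4% (21.1 to 21.7) of the tagged libraries' reads. Both Seb1-HTP values lay between the controls, and the log2 ratio was -0.01 (SE 1.26). That ratio was 1.21 with TMM scaling, 0.94 with DESeq2 scaling and -0.93 in distinct fragments, so it depends on the scaling. A 3' end at position 451785 was found in 7.12% and 15.8% of the untagged libraries' reads, against 15.4% and 12.6% of the tagged libraries' reads. The pooled ratio of shares was 1.00 (0.907 to 1.10). Control 2 gave 378 of the 416 control reads behind that ratio, and its interval leaves out the spread between libraries. The interval 451785 to 451866, of 82 nt, was the most frequent in both Seb1-HTP libraries and in control 2, with 5755, 4538 and 127 reads (6.02%, 6.07% and 5.30%), and control 1 had 14 reads of it (2.62%). Fragments with the same edges were thus recovered with and without the tag. Of the other frequent intervals with this 3' end, 451785 to 451833 held 3.10% and 2.09% of the tagged libraries' reads, against 1.12% and 3.42% of the untagged libraries' reads. The interval 451785 to 451846 held 1.10% and 1.21% of Seb1-HTP reads, with 0 reads in control 1 and 3.67% in control 2.

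This edge also has a copy outside the rDNA repeat in the files. Of 20131 Seb1-HTP reads naming the open reading frame YLR162W alone, on the minus strand, 99.3% lay in intervals that are found among the members after a shift of 37968 nt. Its most frequent interval, XII 489753 to 489834, falls on 451785 to 451866 by that shift and held 5109 Seb1-HTP reads, against 10293 in both 25S copies together. The interval in YLR162W thus held about as many reads as each 25S copy. With the YLR162W reads added, as chosen after seeing the data, the window 451800 to 451849 held 24.8% and 36.7% of the untagged libraries' reads, against 30.2% and 28.7% of the tagged libraries' reads. The groups still overlapped there, and 453650 to 453699 then held 1.52% and 2.90% in the untagged libraries against 20.6% and 27.8% in the tagged ones.

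**Figure D2:**
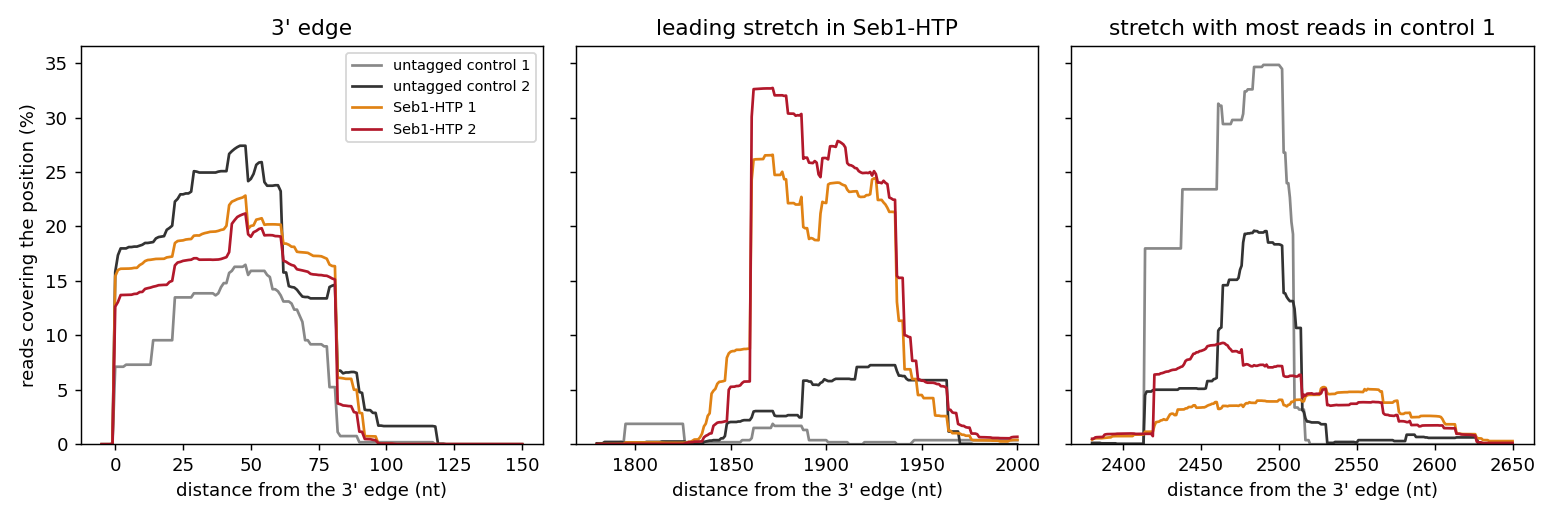
Share of member reads (%) that cover each position, against the distance in nt from position 451785, for the 4 libraries at the 3' edge, at the leading stretch of Seb1-HTP and at the stretch with most reads in control 1. Seb1-HTP coverage jumps at 1 position in the middle panel, where 15.5% and 24.3% of Seb1-HTP reads end, while the coverage of all 4 libraries is high next to the edge in the left panel.

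Upstream, toward the 5' side of 25S, the order of the groups changed from window to window. The window 454250 to 454299 held 19.3% (16.2 to 22.9) and 14.8% (13.4 to 16.3) of control reads, but 2.89% and 6.15% of Seb1-HTP reads, and both Seb1-HTP values lay below both controls (log2 ratio -1.91, SE 1.39). Its neighbour 454200 to 454249 held 17.98% and 5.13% in the untagged libraries against 1.85% and 4.53% in the tagged ones (log2 ratio -1.85, SE 1.43), and its ratio was -0.69 without control 1. The next window on the other side, 454300 to 454349, had the opposite order: 4200 and 2404 Seb1-HTP reads (4.396% and 3.22%), 0 reads in control 1 and 4 reads in control 2 (0.167%, 0.0649 to 0.428), with a log2 ratio of 5.09 (SE 1.89). Placed by the 5' end of the read instead of its midpoint, this ratio was -0.78, and that of 453600 to 453649 was -6.10. Fragments differed as well, but in no single direction. Seb1-HTP reads in 454250 to 454299 had a mean length of 70.8 and 77.2 nt and control reads 47.1 and 47.7 nt. In 454200 to 454249 the order was the opposite, at 57.1 and 60.2 nt with Seb1-HTP and 89.7 and 85.8 nt in the controls. Over 454200 to 454399 the groups overlapped, at 66.7 and 68.3 nt with Seb1-HTP and 67.7 and 56.8 nt in the controls. The most frequent interval of control 1, 454199 to 454294, held 83 of its 96 reads in 454200 to 454249 and 0 reads in the other libraries. Another, 454223 to 454287, held 29 of its 103 reads in 454250 to 454299 and again 0 elsewhere.

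The window 454800 to 454849 separated the replicates rather than the groups. It held 87 reads (16.3%, 13.4 to 19.7) in control 1, 1 read (0.0417%, 0.00736 to 0.236) in control 2, and 6.31% and 3.16% of Seb1-HTP reads. Of the control 1 reads, 68 were the interval 454788 to 454875, which held 0 reads in control 2 and Seb1-HTP 1 and 19 reads in Seb1-HTP 2. The log2 ratio was -0.77 (SE 1.41) with all libraries and 6.82 without control 1, so that library decides its sign. With TMM or DESeq2 scaling it was 0.70 and 0.61, so no direction is given for this window.

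The 4 windows with the highest fitted ratio all had 0 reads in both controls, so only a bound can be given. The clearest was 455050 to 455099, with 846 and 539 Seb1-HTP reads (0.885% and 0.721%), at least 7.94-fold higher against 3 reads over the control group. For 452450 to 452499, beside the left-out site, the bound was 2.64-fold, from 273 and 187 reads, and for 455100 to 455149 it was 2.37-fold, from 294 and 120 reads. Their Seb1-HTP shares, 0.286% and 0.250%, and 0.308% and 0.160%, lay below the 0.562% that a count of 0 allows in control 1 alone. Both bounds therefore rest on the depth of control 2. The bound at 452450 to 452499 holds only for reads placed on 25S. Reads naming the open reading frame RRT15 alone, 25 and 1027 in the controls, were not added. By a shift of 37968 nt, the most frequent RRT15 interval falls on 452455 to 452505, with 3723 Seb1-HTP reads against 37 in 25S. The last of the 4 windows, 452150 to 452199, with 17 and 73 reads, stays below the limit that a control count of 0 allows, also with the controls pooled. At the other end, 453350 to 453399, 454700 to 454749, 453550 to 453599 and 454650 to 454699 had the lowest ratios, from -5.76 to -4.74, and each held 33 Seb1-HTP reads or fewer per library. The controls held 1 and 15, 3 and 17, 9 and 6, and 0 and 12 reads there, so these ratios rest on few control reads. The window 452200 to 452249, among the 5 highest of the controls, held 7.30% and 2.17% there and 0.211% and 0.215% with Seb1-HTP (log2 ratio -4.46, SE 1.71).

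Of the 46 windows with at least 20 reads, both Seb1-HTP shares lay above both controls in 17 (36.96%), below both in 10 (21.7%), and overlapped in 19. Over the 101 windows of the whole 35S rDNA with at least 20 reads, on the same scale, these were 37.6% above and 21.8% below. The members' counts were thus near the background, and nothing is read from them. Of the 17 windows, 6 had 0 reads in both controls. Without control 2 the count above was 28, and without control 1 the count below was 20.

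Joined where consecutive windows held a mean Seb1-HTP share of at least 1%, a limit set after seeing the data, the members formed 6 stretches. They held 94.2% and 93.3% of the tagged libraries' reads and 81.8% and 85.0% of the others. Since the limit selects on the tagged libraries, a higher total there is fixed by the choice. Besides those at 451800 to 451899 and 453600 to 453749, they were 453250 to 453349 (6.39% and 4.85% with Seb1-HTP, 4.49% and 7.97% in the controls), 453900 to 454049 (5.44% and 5.10%, 3.56% and 10.7%), 454200 to 454399 (10.7% and 15.3%, 37.3% and 21.0%) and 454750 to 454899 (10.01% and 5.21%, 17.2% and 2.42%). Only 453600 to 453749 was higher in both Seb1-HTP libraries among these 6, only 454200 to 454399 was lower in both, and the other 4 overlapped. No difference between stretches was tested.

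Counted as distinct fragments, part of this picture changed. The members then numbered 123 and 394 fragments in the untagged libraries against 2740 and 3926 in the tagged ones. The stretch 453600 to 453749 was still higher with Seb1-HTP, at 17.8% and 15.1% of fragments against 6.50% and 10.2%. Its leading window 453650 to 453699 held 8.43% and 6.80% against 4.88% and 5.08%, a log2 ratio of 0.60, well below that of the reads, and 451800 to 451849 then led in the tagged libraries. The stretches 453900 to 454049 (7.99% and 9.35% against 3.25% and 7.87%) and 454750 to 454899 (12.5% and 11.5% against 9.76% and 3.30%) also stood higher. The order of the groups turned for 454200 to 454399, which was lower with Seb1-HTP in reads and was higher in distinct fragments, with 17.4% and 18.5% against 16.3% and 16.8%. The 3' edge at 451800 to 451899, which overlapped in reads, was lower with Seb1-HTP, at 13.0% and 11.8% against 25.2% and 24.1%. Depth differs between the libraries, and these shares were not recomputed at equal depth, so its part in the changes was not tested.

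**Figure D3:**
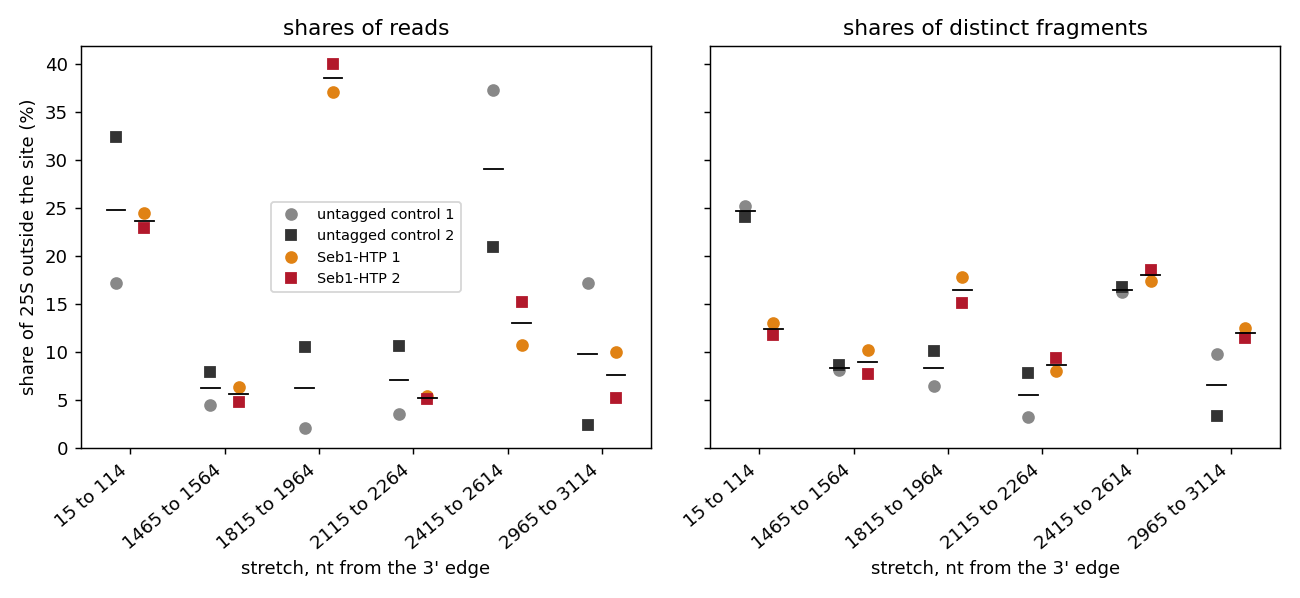
Share (%) of the member reads (left) and of the distinct fragments (right) in the 6 stretches, named by their distance in nt from the 3' edge; each point is 1 library and each short line the mean of a group (n = 2). The stretch at 1815 to 1964 nt holds 37.1% and 39.99% of Seb1-HTP reads and stands above the controls in both panels, while that at 2415 to 2614 nt stands below them in the left panel and above them in the right.

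Read lengths, as recorded, were similar. The median was 50 nt in each of the 4 libraries, with a range of 17 to 118 and 17 to 183 nt in the controls and 17 to 191 and 17 to 207 nt with Seb1-HTP. Whether a record spans a whole RNA fragment or only a read cut at the sequencing length was not tested. Lengths, read ends and distinct fragments therefore describe the deposited records, and not necessarily the RNA fragments. Mean lengths were 60.8 and 55.1 nt in the controls and 60.3 and 60.2 nt with Seb1-HTP, so the groups overlapped. Reads repeated the same fragments more in the deeper libraries, with 4.34 and 6.08 reads per distinct fragment in the untagged libraries against 34.9 and 19.0 in the tagged ones. Thinned to 534 reads, the order turned: 4.34 and 3.01 in the untagged libraries against 2.22 and 2.06 in the tagged ones. At equal depth, the controls thus held fewer different fragments.

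The rDNA copies shared the reads evenly. The first copy took 49.1% (44.8 to 53.3) and 51.8% (49.8 to 53.8) of the untagged libraries' reads, against 49.8% (49.5 to 50.2) and 50.2% (49.9 to 50.6) of the tagged libraries' reads. Of 288 intervals with at least 100 Seb1-HTP reads, 285 had between 40% and 60% of them in the first copy. The copies therefore give 1 measurement, not a repeat of it.

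Most member reads carried substitutions in the deposited records. At least 1 substitution was recorded in 92.9% and 90.1% of the untagged libraries' reads, against 94.6% and 92.9% of the tagged libraries' reads, on average 3.45, 3.40, 3.91 and 3.61 per read. Of 1525 positions covered by at least 100 reads in both Seb1-HTP libraries, 47 carried a substitution in at least 90% of covering reads in both, and these held 61.9% and 62.9% of all substitution marks. No S. cerevisiae sequence was used here, so whether a marked position differs between the species was not tested. Of 19 such positions that at least 50 reads of control 2 covered, 14 were also at 90% or more there. The position with most marks was 453665, in the leading stretch, at 97.0% of 21148 and 99.1% of 22708 Seb1-HTP reads, and at 88.9% of 9 and 95.3% of 64 control reads. Close to it, 453683 was marked in 96.6% and 96.9% and 453680 in 93.1% and 91.9% of covering Seb1-HTP reads. At the 3' edge, 451861 and 451862 were marked in 98.4% to 99.7% of Seb1-HTP reads and in 91.8% to 94.1% of control reads.

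Deletions, which a base still bound to a peptide can leave in the cDNA, were fewer. They were recorded in 21.5% (18.3 to 25.2) and 12.9% (11.6 to 14.3) of the untagged libraries' reads, against 8.35% (8.17 to 8.52) and 8.32% (8.13 to 8.52) of the tagged libraries' reads. The groups did not overlap, with means of 17.2% ± 6.11 and 8.33% ± 0.0184 (SD, n = 2 each). Seb1-HTP minus control was -8.88 percentage points in reads and -0.607 when each distinct fragment counts once, and -4.56 in reads without control 1. In control 1, 80.5% of the reads in 454800 to 454849 had a deletion, and in Seb1-HTP 14.4% and 12.9%. In control 2, 70.4% of the 159 reads in 453700 to 453749 had a deletion, and in Seb1-HTP 3.19% and 1.46%. Of those 159 reads, 108 were the interval 453673 to 453748. Much of the control values thus lay in single windows, and the difference without these windows was not computed. In 453650 to 453699, the leading window of Seb1-HTP, 2.01% and 2.23% of Seb1-HTP reads had a deletion, below the 10.8% and 14.4% of 451800 to 451849 at the 3' edge. The controls had a deletion in 11.1% of 9 and 6.17% of 81 reads in the leading window, and in 6.74% and 6.49% at the edge. Deletion marks did not gather at single positions as substitutions did: 0 positions reached 90%, and 8 of 1525 reached 5% in both Seb1-HTP libraries. A position recorded as both kinds in a read was counted under both, which holds for 1.05% and 1.52% of Seb1-HTP deletion marks. The positions with most deleted reads were 451829 to 451831, at 2.60% to 7.20% of covering Seb1-HTP reads, 0% of 87 reads in control 1 and about the same, 4.11% to 4.15%, in control 2. Positions 453311 and 453312 differed between the replicates, at 18.6% and 16.9% in Seb1-HTP 1 and 3.53% and 3.25% in Seb1-HTP 2, with 0 of 158 and 0 of 157 covering reads in control 2. The highest value, chosen after it was seen, was at 454080, with 52.6% of 306 and 61.8% of 283 covering Seb1-HTP reads, where the controls had 0 and 1 covering read.

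**Figure D4:**
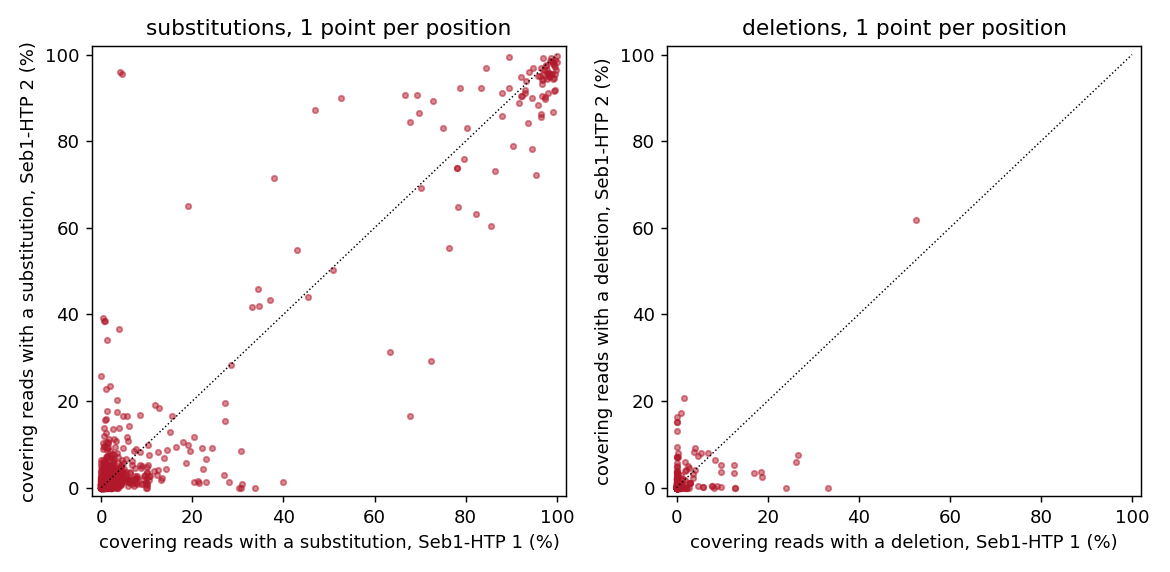
Share of covering reads (%) with a substitution (left) or a deletion (right) in Seb1-HTP 1 and Seb1-HTP 2; each point is 1 of 1525 positions with at least 100 covering reads in both, and the dotted line marks equal values. Substitutions form a cluster near 100% in both libraries, with 47 positions at 90% or more, while deletions stay low except for 1 position at 52.6% and 61.8%.

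Set beside the other rRNA parts, the members had fewer deletions than the left-out site in each library. That site had deletions in 57.2% and 50.7% of its control reads, and in 24.0% and 26.8% of those with the tag. With Seb1-HTP, the values for 5.8S were 10.1% and 12.9% and for 18S 15.9% and 12.4%, both above the members. In the controls 5.8S stood at 36.7% and 13.0%, the latter close to the 12.9% of the members, and 18S at 2.19% and 7.37%, below them. Mean lengths in the Seb1-HTP libraries were 65.4 and 63.6 nt for the left-out site, 63.4 and 57.7 nt for 5.8S and 66.6 and 54.8 nt for 18S. The members' 60.3 nt in Seb1-HTP 1 was below all 3 of these, and their 60.2 nt in Seb1-HTP 2 lay among them. These parts were not tested against each other.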

How the data were processed

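CRAC reads were measured in 4 libraries, 2 per group. The deposited values are raw read counts per mapped interval, written by Counters 1.4.2 per the file headers; Novoalign 2.0.4 and the build ASM294v2 are named in the submitters' processing notes, although the records lie on S. cerevisiae chromosomes. Named reads were 4579, 45339, 268030 and 231656 per library, and 1.61%, 0.334%, 2.12% and 4.90% of reads named no feature and stayed out of totals. Members, lists and tests were chosen with earlier results of these data known.

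Shares were computed with Python 3.11.15 in 50-nt windows. Log2 ratios came from an edgeR 4.0.16 quasi-likelihood fit (R 4.3.3) of 101 windows of the 35S rDNA with at least 20 reads, scaled by member reads. The fit gives no standard error itself. Each SE was derived as the absolute log2 ratio divided by the square root of its F statistic, and is approximate. No p-value is given because the choice of members used this contrast. Named windows were the 8 highest of Seb1-HTP, the 5 highest of the controls, the 4 highest and 4 lowest ratios, and 2 outside each border. Named intervals were the 3 most frequent per library, and named marks the 5 positions with most Seb1-HTP reads. The scripts were tested on simulated data. Alternatives included TMM, DESeq2 1.42.0, distinct fragments, single copies, other windows and each library left out. Depth limits the controls most. An exact permutation test of 2 against 2 libraries was not run.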

Additional observations from a re-analysis of the deposited data

Results flagged for a closer look

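Reads naming the open reading frame RRT15 alone entered no comparison above. They were 7.33% and 2.80% of named reads in the tagged libraries against 0.546% and 2.27% in the untagged ones. The left-out site is part of this denominator, with 3153 of 4579 and 37977 of 45339 named reads in the controls. In the tagged libraries it held 12649 of 268030 and 15296 of 231656. No order of the groups is therefore read from the RRT15 shares. The most frequent RRT15 interval, XII 490423 to 490473, held 3723 Seb1-HTP reads. It falls by the shift of 37968 nt on 452455 to 452505, at the border of the left-out site, where the same interval held 37 reads in 25S. With that shift 70.2% of the Seb1-HTP reads of RRT15 lay in intervals found among the members. Plus-strand records naming 25S, which the choice of the minus strand left out, held 30 reads in Seb1-HTP 2, 9 of them outside the left-out site, and 0 reads in the other 3 libraries.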

How the results depend on the processing

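The share of named reads in the members was 25.5 percentage points higher with Seb1-HTP. This difference was 2.81 in distinct fragments and 33.1 over reads naming the 35S rDNA, and it turned to -5.72 over those outside the left-out site. It was 12.8 and 12.7 in the first and second copy alone. The denominator there was still all named reads, so the even split of reads between the copies fixed this fall. With each library left out it ran from 22.3 to 28.7. The 17 windows above both controls became 33 with windows of 25 nt and 1 with windows of 250 nt (17 to 28 with a library left out). The 10 windows below became 6 in the first copy and 6 in distinct fragments, 5 with windows of 250 nt and 5 with at least 100 reads (9 to 20 with a library left out). The highest mean Seb1-HTP share of a window was 27.0%, at 453650 to 453699, and 23.1% to 30.9% with a library left out. It was 17.0% and 38.8% with windows of 25 and 250 nt, at 453675 to 453699 and 453500 to 453749. In distinct fragments another window led, 451800 to 451849 at 10.7%, and 453650 to 453699 held 7.62%. The difference of -8.88 points in deletions became -0.607 in distinct fragments and ran from -13.2 to -4.56 with a library left out. That of 2.27 nt in mean length ran from -0.621 to 5.15, and the excess of 21.7 reads per fragment turned to -1.53 after thinning (13.8 to 29.7 with a library left out). Of 196 log2 ratios refitted for 16 named windows, 175 stayed within 1 SE and 18 moved farther. In 3, a ratio larger than its SE changed sign: 453600 (-6.10) and 454300 (-0.78) by 5' ends, and 454200 (1.22) in distinct fragments. The SEs ran from 1.26 to 2.16, so 1 SE is a wide limit. Named windows with 0 reads in both controls were not counted. With TMM and DESeq2 scaling, 451800 stood at 1.21 and 0.94, 453650 at 4.59 and 4.31, and 454250 at -0.67 and -0.90. With the replicate number as a block (replicate block), 453650 had a log2 ratio of 3.48, and the largest change, 2.80, was at 454800, where the sign turned. The replicate numbers are not stated to pair the libraries, and the correlation of same-numbered deviations was 0.0238 over 46 windows. The cause of these shifts was not tested. Depth limits control 1 most, at 534 reads.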
